A study of Mus musculus with 3 samples.

Results

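The nuclear genes for the subunits of the 5 respiratory complexes were followed through the thymocyte stages of mice with germline alterations of p53. Members were all genes whose symbols begin with Ndufa, Ndufb, Ndufc, Ndufs or Ndufv and a digit, the 4 Sdh genes, the Uqcr genes, Cox4 to Cox8 and the Atp5 genes. Assembly factors of the Ndufaf series and pseudogenes (1 symbol) were left out. This gave 84 of 32285 genes. By symbol alone 37 were assigned to complex I, 4 to complex II, 8 to complex III, 18 to complex IV and 17 to complex V. Whether each protein, such as that of Ndufa4, sits in the complex of its symbol was not checked. Ndufab1 and Cyc1 are subunits too, but lie outside this symbol rule. Each of 3 genotypes (p53+/-, p53 AD/- and p53-/-) gave 1 single-cell RNA library, from the thymus of a female mouse aged 4 weeks. The strain labels give BALB/C mixed with C57BL6, C57BL7 and C57BL8 in that order, and whether these are different strains is not known. The alterations are germline, so every cell of a mouse carries them, and the p53 AD/- and p53+/- mice each have 1 null allele. What the AD allele is, no label spells out, the series title speaks of p53 dimers and metabolism, and the design text calls the first group WT where its label reads p53+/-. With 1 library per genotype there is no replicate, so no test was made, the ratios compare libraries and not genotypes, and all 95% intervals cover counting error only.

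The respiratory chain sits in the inner mitochondrial membrane. Complex I takes electrons from NADH and complex II from succinate, complex III passes them to cytochrome c, complex IV hands them to oxygen, and complex V makes ATP from the proton gradient that complexes I, III and IV build. Most subunits are encoded in the nucleus, while complexes I, III, IV and V also hold subunits encoded by mitochondrial DNA. In the thymus, early CD4-negative CD8-negative (DN) cells expand, become small resting CD4-positive CD8-positive (DP) cells, and mature to single-positive (SP) cells after selection.

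Of the promoters, 4 are shown: 3 because their genes had the highest ratio in 1 of the 3 pairs of libraries (Ndufa3, Atp5b and Sdhb) and that of Atp5h because it holds a second kind of motif. Each is the 250 bases before the RefSeq start on GRCm38.p6, written 5′ to 3′ on the strand of the gene, with capitals marking a match to a searched motif. They lie at chr7:3617123-3617372 (plus strand), chr10:128083057-128083306 (plus strand), chr4:140961021-140961270 (plus strand) and chr11:115419920-115420169 (minus strand).
Ndufa3: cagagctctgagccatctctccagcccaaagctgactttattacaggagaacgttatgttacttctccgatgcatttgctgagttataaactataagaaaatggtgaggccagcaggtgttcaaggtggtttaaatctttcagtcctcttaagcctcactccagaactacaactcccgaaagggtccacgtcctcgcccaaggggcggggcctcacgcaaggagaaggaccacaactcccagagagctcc
Atp5b: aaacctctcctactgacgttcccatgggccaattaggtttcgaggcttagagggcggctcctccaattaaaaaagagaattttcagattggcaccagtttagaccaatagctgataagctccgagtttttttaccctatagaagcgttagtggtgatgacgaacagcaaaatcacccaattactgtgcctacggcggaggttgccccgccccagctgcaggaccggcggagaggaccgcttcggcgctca
Sdhb: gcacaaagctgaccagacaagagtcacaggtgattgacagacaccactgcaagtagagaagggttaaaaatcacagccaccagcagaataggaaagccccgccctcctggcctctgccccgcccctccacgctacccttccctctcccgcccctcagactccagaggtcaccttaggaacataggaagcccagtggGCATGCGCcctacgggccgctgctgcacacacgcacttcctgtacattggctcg
Atp5h: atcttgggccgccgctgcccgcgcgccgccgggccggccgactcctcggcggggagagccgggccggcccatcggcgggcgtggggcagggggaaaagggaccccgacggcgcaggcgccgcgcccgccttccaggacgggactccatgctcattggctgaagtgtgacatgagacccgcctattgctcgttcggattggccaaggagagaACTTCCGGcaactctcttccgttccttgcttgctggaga
A set of 3 motifs of factors known for binding respiratory gene promoters was searched on both strands of windows from 250 bases before to 50 after the start: GCATGCGC for NRF1, CCGGAAGT for ETS factors such as GABP, and AAGATGGCG for YY1. The letters of the motifs can share bases at their ends, and 1 member, Uqcr11, held both NRF1 and ETS letters. Of the 84 members 67 were matched to a RefSeq promoter. NRF1 letters were found in 10 of them (14.9%), against 2.71% of all 32851 windows and 6.93% of the 7682 genes with at least 100 UMIs that were matched. YY1 letters were found in 7 members (10.4%, against 1.40% of windows and 4.40% of those genes), and ETS letters in 5 (7.46%, against 3.89% and 11.1%). In the sequences shown, the NRF1 match of Sdhb began 54 bases before the start and the ETS match of Atp5h, on the other strand, 39 bases before it. Ndufa3 and Atp5b held none of the 3 motifs in the window searched. Members with any of the 3 motifs (21) and without (44) had median log2 ratios of 0.31 and 0.35 for p53 AD/- over p53-/-.

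After cells with fewer than 500 genes or 10% or more mitochondrial UMIs were removed, 8150 p53+/-, 6171 p53 AD/- and 9543 p53-/- cells remained, with medians of 3238.5, 2484 and 3062 UMIs (unique molecular identifiers, counts of RNA molecules). Cell barcodes shared by 2 libraries numbered 15 to 29. The p53 AD/- library stood apart: it was the shallowest, and cells of its main class had a median Malat1 share (a long nuclear RNA) of 3.79%, against 6.06% in p53+/- and 7.33% in p53-/-, and a median mitochondrial share of 3.49% against 4.28% and 3.88%. Clusters with Rag1, Cd8b1 or Arpp21, genes of DP thymocytes, among their 10 leading genes were called quiescent DP-like. They were the largest class of each library with 4864, 3614 and 5109 cells, but not the same cells in each: cluster 2 held 2399 of the 3614 p53 AD/- cells, and cluster 0 the largest part in p53+/- (1861) and p53-/- (2169). Trp53 itself stood at 60.5, 73.2 and 48.0 CPM (UMIs scaled to a common total) in this class, so the library labelled p53-/- still held its transcripts, and since no label says what the null allele lacks, this checks the labels little. Of 6 lists of markers of other cell types, the 7 erythroid markers differed most, with summed levels of 395, 13.4 and 91.1 CPM in p53+/-, p53 AD/- and p53-/-. The 8 granulocyte markers stood at 36.3, 5.04 and 46.7 CPM, with 2, 4 and 0 of them at 0. The part of these RNAs in the differences below was not tested.

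In quiescent DP-like cells the summed level of the members was highest in p53 AD/- and lowest in p53-/-. It was 22211 CPM for p53+/- (interval 22135 to 22289), 25916 CPM for p53 AD/- (25804 to 26028) and 20710 CPM for p53-/- (20632 to 20788). The log2 ratio was 0.32 for p53 AD/- over p53-/- (0.32 to 0.33), 0.22 for p53 AD/- over p53+/- (0.21 to 0.23) and -0.10 for p53-/- over p53+/- (-0.11 to -0.094). These are shares of a cell's RNA: as molecules per cell the order was another, with 65.8, 56.9 and 52.9 UMIs. The first 2 ratios use the same p53 AD/- library and are not independent. In the 2276 cells per library matched on their Malat1 share the 3 ratios were 0.14, 0.099 and -0.044, and over all filtered cells 0.18, 0.15 and -0.027. Scaling by TMM factors (edgeR) shifted every gene's log2 ratio by 0.13, 0.029 and -0.098 and gave -0.20 for p53-/- over p53+/-.

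Complexes I, III, IV and V shared this order and complex II did not. Complex I summed to 7207, 8600 and 6582 CPM in p53+/-, p53 AD/- and p53-/-. Complex II summed to 293, 342 and 322 CPM, so that p53+/- was lowest. Complex III summed to 2319, 2686 and 2131 CPM. For complex IV the sums were 5552, 6070 and 5160 CPM, and for complex V 6840, 8219 and 6515 CPM. The p53 AD/- over p53-/- log2 ratio was 0.39 for complex I (0.37 to 0.40), 0.33 for complex III (0.31 to 0.36), 0.34 for complex V (0.32 to 0.35), 0.23 for complex IV (0.22 to 0.25) and 0.087 for complex II (0.016 to 0.16). The intervals of complexes II and IV lay below those of complexes I, III and V. For complex II the ratio was -0.068 in cells matched on Malat1 share and 0.21 under TMM factors, and for complex IV 0.043 and 0.36.

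**Figure D1:**
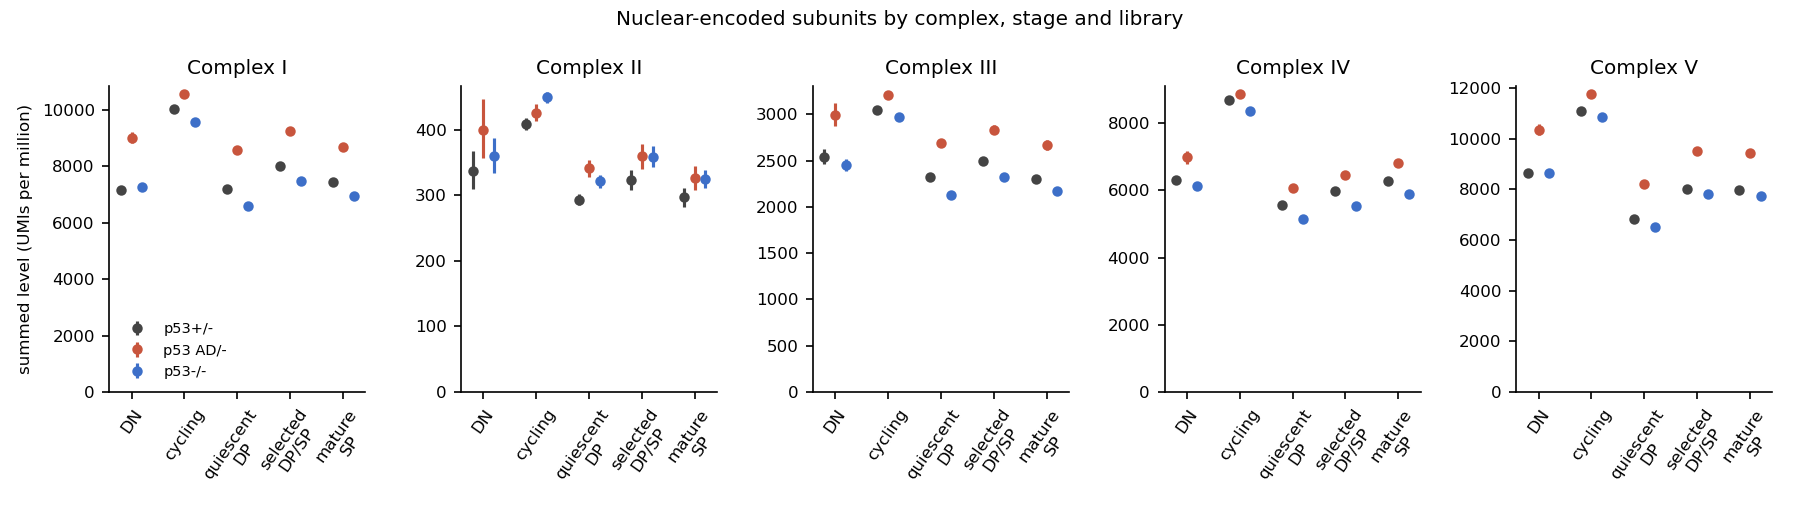
Summed level of each complex (CPM of a class, y axis from 0) in 5 thymocyte classes (x axis), with 1 point per library and exact 95% Poisson intervals that cover counting error only. In complexes I, III, IV and V the p53 AD/- point is the highest of the 3 in each class, and cycling cells carry the highest levels of each library.

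Counted gene by gene, 75 of 78 measured members had a log2 ratio over 0 for p53 AD/- over p53-/-, where 40.5% of all genes did. For p53 AD/- over p53+/- it was 67 of 78, where 46.8% of all genes did. Of the 84 members, 78 had at least 100 UMIs over the 3 libraries in quiescent DP-like cells. A member was counted as higher or lower when its level differed by at least 1.2-fold. Against p53-/-, 54 of the 78 were higher in p53 AD/- and 0 lower, where 20.9% of all 9902 genes with at least 100 UMIs were higher and 39.5% lower. The members' median log2 ratio was 0.34 and that of all genes -0.12. Against p53+/-, 37 were higher and 1 lower, where 23.1% of all genes were higher and 31.3% lower, with medians of 0.25 and -0.034. Between p53-/- and p53+/-, 2 were higher in p53-/- and 4 lower, where 22.5% of all genes were higher and 8.56% lower, with medians of -0.097 and 0.092. The order p53 AD/-, p53+/-, p53-/- from high to low was found in 52 members, and 15 others had p53 AD/- highest and p53+/- lowest. How many of all genes had either order was not counted. All genes had a longer median summed exon length than the members, and medians and some counts at like length are given below. For comparison, 82 cytosolic ribosomal protein genes had medians of 0.22, 0.041 and -0.16 in the 3 pairs. At a 1.5-fold difference 5 and 3 members were higher in p53 AD/- than in p53-/- and p53+/-. In cells matched on Malat1 share the 54 and 37 became 18 and 14, and over all filtered cells 21 and 21. With TMM factors 28 members and not 4 were lower in p53-/- than in p53+/-. The shares of all genes were not counted at 1.5-fold, in matched cells, over all filtered cells or with TMM factors. These counts therefore have no background beside them.

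**Figure D2:**
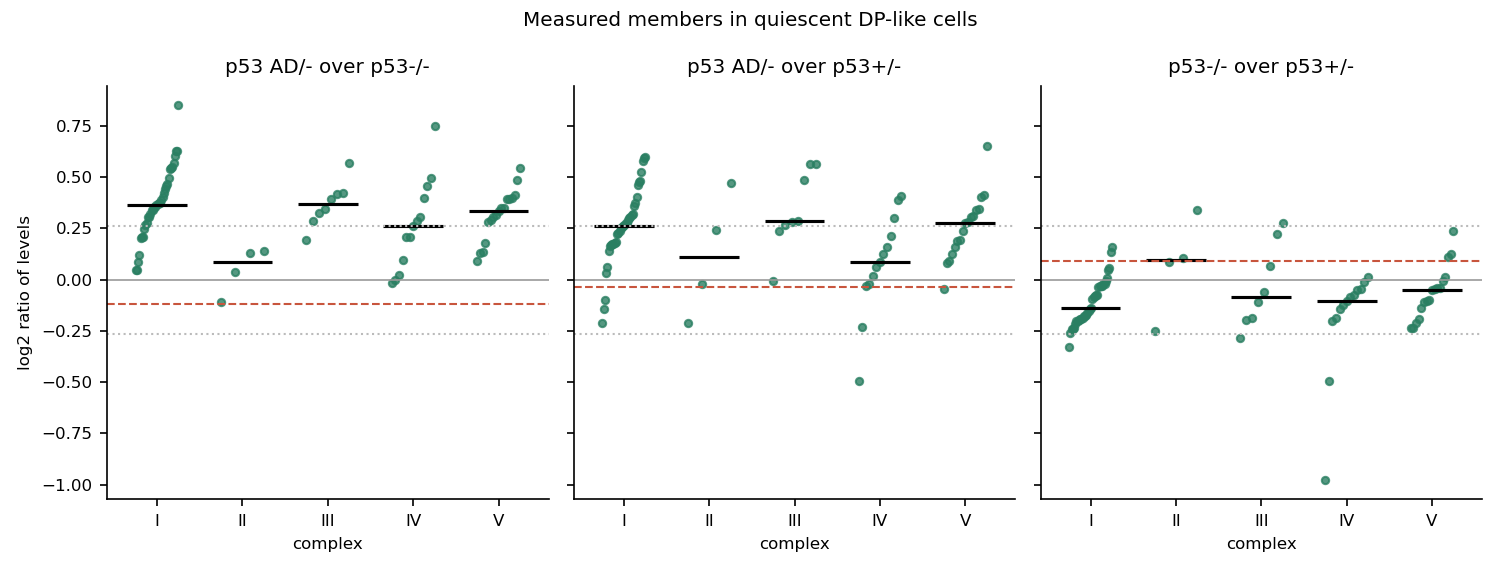
Log2 ratio of each measured member (points, ordered within its complex) in quiescent DP-like cells for the 3 pairs of libraries, with black bars at the complex medians, the dashed line at the median of all 9902 genes and dotted lines at 1.2-fold. Complex I, III and V members lie mostly above the upper dotted line in the first pair, while Sdhc, Cox7a2l and Cox7a1 lie at or below 0.

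Complex I held the member with the highest ratio. Ndufa3, an accessory subunit (ENSMUSG00000035674, GRCm38 chr7:3617373-3620327, positions from GENCODE M21), stood at 323 CPM for p53+/- (314 to 332), 465 CPM for p53 AD/- (450 to 480) and 257 CPM for p53-/- (249 to 266). Its level in p53 AD/- was 1.80 times that in p53-/-, a log2 ratio of 0.85 (0.78 to 0.92), the highest of all members, and it was 0.69 in cells matched on Malat1 share. The 7 nuclear subunits of the catalytic core carry the flavin, the iron-sulfur clusters and the quinone site, and had a median of 0.49 against p53-/- and 0.48 against p53+/-. The other 29 had medians of 0.35 and 0.25. Ndufv2, an iron-sulfur subunit of the NADH-oxidising end, stood at 134, 204 and 132 CPM in p53+/-, p53 AD/- and p53-/-, with ratios of 0.63 (0.53 to 0.73) and 0.60 (0.50 to 0.70). Ndufv1, which binds NADH and the flavin, stood at 45.0, 67.9 and 49.5 CPM. In both, the p53 AD/- level was high and the other 2 were close to each other. Ndufs3, another subunit of the core, stood at 113, 158 and 102 CPM. Ndufs7 and Ndufs8, which carry the last iron-sulfur clusters before quinone, stood at 93.8, 117 and 82.9 CPM and at 105, 144 and 109 CPM. Ndufs1, the core subunit with several iron-sulfur clusters, differed from these: it stood at 41.0, 37.1 and 36.0 CPM, with ratios of 0.047 (-0.17 to 0.26) and -0.14 (-0.35 to 0.061), intervals that hold 0. Ndufb3, an accessory membrane subunit, was lowest against p53+/- at 208, 179.6 and 174 CPM (log2 ratio -0.21, -0.30 to -0.12, in p53 AD/-), a difference under 1.2-fold. Ndufa13, an accessory subunit also known as a regulator of cell death, stood at 385, 476 and 326 CPM. In all, 28 of 36 measured members were higher in p53 AD/- than in p53-/- and 18 higher than in p53+/-, with 0 lower in either pair. Of all genes 20.9% and 23.1% were higher and 39.5% and 31.3% lower in these pairs.

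Complex II is also the succinate dehydrogenase of the citric acid cycle and has no subunit encoded in the mitochondrion. It gave no member past 1.2-fold for p53 AD/- over p53-/- in either direction. In this pair 20.9% of all genes were higher and 39.5% lower, against 0 of the 4 members of complex II. Sdhb, its iron-sulfur subunit (ENSMUSG00000009863, chr4:140961203-140979193), stood at 111 CPM for p53+/- (106 to 117), 154 CPM for p53 AD/- (145 to 163) and 141 CPM for p53-/- (134 to 147). The p53+/- library was thus the low one, with log2 ratios of 0.47 for p53 AD/- (0.36 to 0.58) and 0.34 for p53-/- (0.24 to 0.44). Sdhb was the 1 of 4 members higher by 1.2-fold in p53 AD/- than in p53+/-, with 0 lower. Among all genes 23.1% were higher and 31.3% lower in that pair. Sdha, the flavin subunit that oxidises succinate, stood at 78.3, 92.6 and 84.2 CPM. Sdhc and Sdhd, which anchor the enzyme in the membrane, stood at 41.6, 40.9 and 44.1 CPM and at 62.7, 54.1 and 52.7 CPM. For Sdhc the intervals of all 3 pairs of libraries held 0 on the log2 scale, and it was the single member with p53-/- highest and p53 AD/- lowest.

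Of the 8 complex III members 7 were higher in p53 AD/- than in p53-/- and 6 higher than in p53+/-, where 20.9% and 23.1% of all genes were higher. Uqcrc1, a core protein that faces the matrix (ENSMUSG00000025651, chr9:108936633-108949623), stood at 74.7 CPM for p53+/- (70.3 to 79.3), 110.3 CPM for p53 AD/- (103 to 118) and 90.4 CPM for p53-/- (85.3 to 95.7). Uqcrfs1, the Rieske iron-sulfur protein that passes electrons towards cytochrome c, had the same order at 144, 213 and 168 CPM. Uqcrc2, the partner of Uqcrc1, stood at 120.5, 169 and 126 CPM. The small subunits Uqcr10, Uqcr11, Uqcrb and Uqcrq had p53-/- as the lowest library instead. For Uqcr11 the levels were 299.5, 365 and 246 CPM, a p53 AD/- over p53-/- ratio of 0.57 (0.50 to 0.64). Uqcrh, the acidic hinge protein between cytochrome c1 and cytochrome c, stood at 893, 888 and 778 CPM, with an interval of -0.051 to 0.033 against p53+/-. In cells matched on Malat1 share the p53 AD/- over p53-/- ratios of Uqcrc1 and Uqcrfs1, 0.29 and 0.34, were 0.038 and 0.074.

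Complex IV had lower p53 AD/- ratios than complexes I, III and V, with 6 of 13 measured members higher in p53 AD/- than in p53-/- and 3 higher than in p53+/-. The first count is 46.2% of the 13, against 20.9% of all genes. The second count is 23.1% of the 13, the same share as among all genes. Cox5a and Cox5b, subunits on the matrix side, stood at 234, 310 and 226 CPM and at 345, 452 and 321 CPM. Cox4i1, the general form of a regulatory subunit, stood at 997, 1087 and 941 CPM, a p53 AD/- over p53-/- ratio of 0.21 (0.17 to 0.25). Cox7a2l, which takes part in joining complexes III and IV into supercomplexes, stood at 494, 483 and 490 CPM and all its intervals held 0. Cox7b, a small membrane subunit, stood at 317, 313 and 307 CPM. Of 8 isoforms known from muscle, lung, testis or hypoxia, 6 had under 100 UMIs: Cox6a2 (43), Cox4i2 (10), Cox8b (2), Cox8c (1), Ndufa4l2 (1) and Cox7b2 (0, which allows up to 0.46 CPM in the shallowest library by its exact interval). Cox6b2, best known from testis (ENSMUSG00000051811, chr7:4751792-4753094), was counted with 296, 139 and 136 UMIs in the p53+/-, p53 AD/- and p53-/- libraries, or 20.5 CPM (18.3 to 23.0), 17.5 CPM (14.7 to 20.7) and 10.4 CPM (8.75 to 12.3). The p53-/- library was low, with a log2 ratio of -0.98 over p53+/- (-1.28 to -0.68) that was -0.53 over all filtered cells. Its p53 AD/- over p53-/- ratio was 0.75 (0.40 to 1.10), and 0.31 in cells matched on Malat1 share. Cox7a1, the heart and muscle form, had 87, 34 and 56 UMIs, and its p53 AD/- over p53+/- ratio of -0.50 (-1.11 to 0.092) was the 1 member ratio counted as lower in that pair. It turned to 0.062 over all filtered cells.

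In complex V, 13 of 17 members were higher in p53 AD/- than in p53-/- and 9 higher than in p53+/-, with 0 lower in either. Of all genes 20.9% and 23.1% were higher and 39.5% and 31.3% lower. The 5 subunits of the catalytic F1 part were all among the 13. Atp5b, the beta subunit with the catalytic sites (ENSMUSG00000025393, chr10:128083273-128090391), stood at 372 CPM for p53+/- (362 to 382), 584 CPM for p53 AD/- (567 to 601) and 439 CPM for p53-/- (428 to 451). Its p53 AD/- over p53+/- ratio of 0.65 (0.59 to 0.71) was the highest of that pair and 0.42 in cells matched on Malat1 share, while its ratio over p53-/- was 0.41 and 0.13 so matched. Atp5a1, the alpha subunit beside it, stood at 397, 492 and 386 CPM and Atp5c1, the central stalk subunit gamma, at 310.2, 413 and 335 CPM. Atp5c1 was the 1 of the 54 members higher in p53 AD/- than in p53-/- whose ratio changed sign in 1 of the 11 alternatives, from 0.30 to -0.010. The 3 gene copies for subunit c, whose mature protein forms the rotating ring, differed less. Atp5g1 stood at 186, 203 and 163 CPM, Atp5g2 at 329.8, 319 and 299.9 CPM and Atp5g3 at 282, 300.0 and 274 CPM, with p53 AD/- over p53-/- ratios of 0.31, 0.090 and 0.13. These copies share sequence, and what this did to their counts was not tested. Atp5h, subunit d of the side stalk, stood at 845, 1028 and 784 CPM.

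Within single clusters of the quiescent DP-like class the p53 AD/- level was highest in 4 of 5. For p53 AD/- over p53-/- the ratio was 0.13 in cluster 0, 0.27 in clusters 1 and 2 and 0.24 in cluster 5, each below the 0.32 of the whole class. In cluster 0 the levels were 19838, 20699 and 18880 CPM in p53+/-, p53 AD/- and p53-/-, and in cluster 2 23781, 26587 and 22061 CPM. In cluster 3, with 80, 29 and 29 cells, the levels were 10498, 9832 and 11586 CPM and the ratio was -0.24. These clusters were made without the members and were set side by side after the data were seen.

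**Figure D3:**
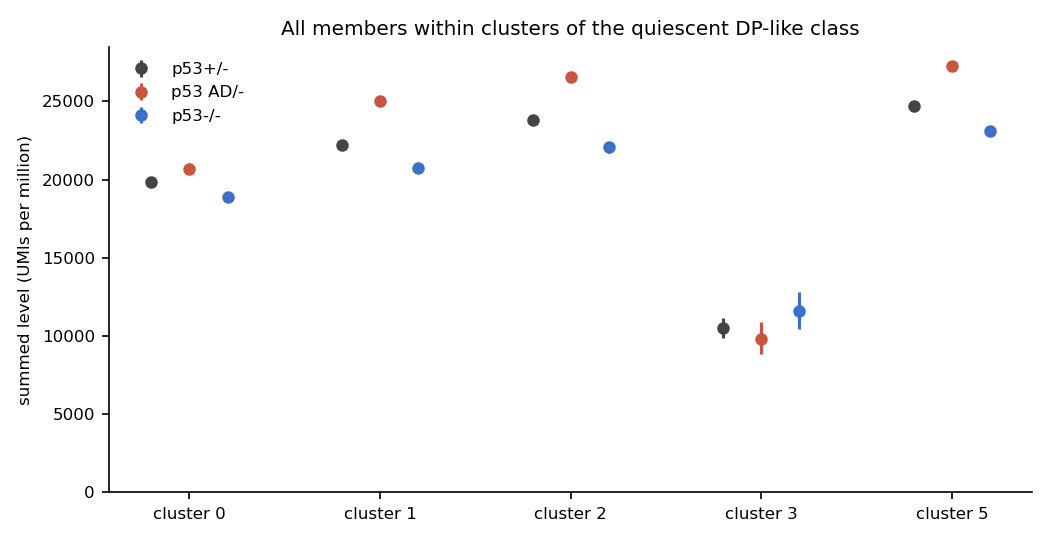
Summed level of all members (CPM of the cluster, y axis from 0) in the 5 clusters of the quiescent DP-like class, with 1 point per library and exact 95% Poisson intervals. In clusters 0, 1, 2 and 5 the libraries follow the order p53 AD/-, p53+/-, p53-/- from high to low, and in cluster 3 the p53 AD/- point is lowest.

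Genes of short summed exon length moved with the members. This length joins the exons of all annotated transcripts of a gene, so it can exceed the length of any 1 transcript. The measured members had a median summed exon length of 977 bases, against 3179 for all genes tested. Among other genes under 1000 bases (628) the median p53 AD/- over p53-/- ratio was 0.24 and 46.7% were higher in p53 AD/-, where the 40 members of that length had a median of 0.35 and 27 were higher. Among other genes of 4000 bases or more (3595) the median was -0.39, with 5.70% higher and 63.2% lower. From 2000 to under 4000 bases the 8 members had a median of 0.24 and other genes -0.069. Against p53+/- the medians under 1000 bases were 0.20 for members and 0.11 for other genes, and from 1000 to under 2000 bases 0.30 and 0.25. Under 1000 bases 14 of the 40 members were higher in p53 AD/- and 1 lower, close to the 30.9% of other genes higher, with 23.4% lower. From 1000 to under 2000 bases 17 of 28 members were higher and 0 lower, where 47.9% of other genes were higher and 13.0% lower. In both pairs with p53 AD/- the members' median lay above that of other genes in each of the 4 length bands. The gap was smaller in the 2 shorter bands, which hold 68 of the 78. The longest band holds only Ndufb2 (4375 bases) and Atp5g1 (4912 bases) among members. Whether the transcripts present in these cells are that long was not tested, so the gaps in the longer bands may compare genes of unlike transcript length. For p53-/- over p53+/- the medians under 1000 bases were close, at -0.14 for members and -0.12 for other genes. In that band 4 of the 40 members and 28.5% of other genes were lower. From 1000 to under 2000 bases the medians were -0.041 and 0.057. The length bands were chosen after the data were seen, and what made the ratios depend on length was not tested.

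**Figure D4:**
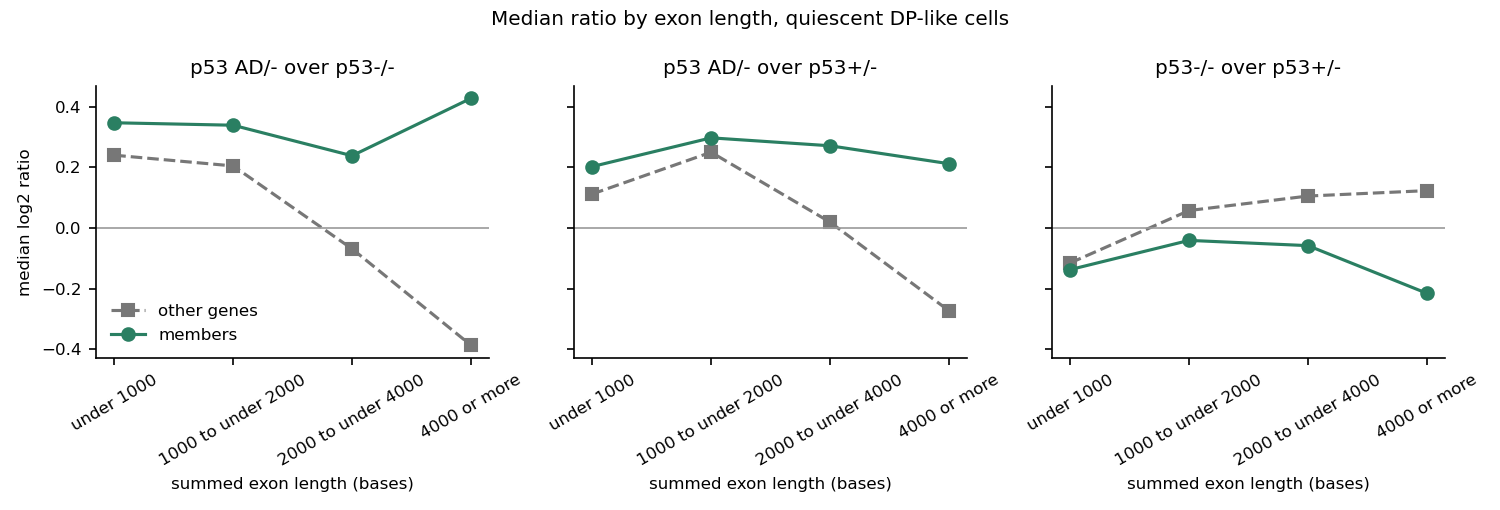
Median log2 ratio (y axis) of members (circles) and of other genes (squares) by summed exon length in 4 bands (x axis) in quiescent DP-like cells, for the 3 pairs of libraries. The line of other genes falls from 0.24 to -0.39 with length in the first pair, the members lie between 0.24 and 0.43, and the longest band holds 2 members.

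Cycling cells carried the highest summed level of each library. It was 33270, 34835 and 32212 CPM for p53+/-, p53 AD/- and p53-/-, a log2 ratio over quiescent DP-like cells of 0.58 (0.58 to 0.59), 0.43 (0.42 to 0.43) and 0.64 (0.63 to 0.64). Of the 78 members, 62, 51 and 66 were at least 1.2-fold higher in cycling cells, where 25.7%, 23.1% and 26.0% of all genes were higher, and the median of all genes was -0.44, -0.49 and -0.43. By complex, the ratio in p53+/- was 0.70 for complex V, 0.64 for complex IV, 0.48 for complexes I and II and 0.39 for complex III. Cox5a, at 234 CPM in quiescent and 598 CPM in cycling p53+/- cells, had a ratio of 1.35, and Ndufa12, an accessory subunit of complex I, had 1.22, 1.04 and 1.43 in p53+/-, p53 AD/- and p53-/-. Atp5g2, one of the subunit c copies, had 1.15, 1.16 and 1.29. Cox7a2l went the other way, from 494 to 290 CPM in p53+/-, with ratios of -0.77, -0.76 and -0.64. Ndufs4, a complex I accessory subunit, stood at -0.42, -0.48 and -0.31, and Ndufa6 and Uqcrh were lower by 1.2-fold in p53+/- and p53 AD/-, but these 3 turned positive under TMM factors, which shifted the comparison by 0.50 to 0.54. Cox7a2l stayed below 0 under that shift. The factors raised the totals to 1.09, 0.97 and 1.17. The classes also differed in depth and make-up. In p53+/- 1055 cycling cells held 17070371 UMIs and 4864 quiescent DP-like cells 14409463. Malat1 stood at 8904, 9584 and 11535 CPM in cycling cells against 57201, 45255 and 68827 CPM in quiescent DP-like cells. Cytosolic ribosomal protein genes summed to 249265, 238998 and 243758 CPM against 172206, 175886 and 153644 CPM. The part of these differences in the stage ratios was not tested.

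The summed level was higher in p53 AD/- than in either other library in each class, by the smallest ratio in cycling cells. For p53 AD/- over p53-/- the ratio of the summed level was 0.26 (0.24 to 0.28) in DN-like cells, 0.11 (0.11 to 0.12) in cycling cells, 0.27 (0.26 to 0.28) in selected DP and early SP-like cells and 0.28 (0.27 to 0.29) in mature SP-like cells. For p53-/- over p53+/- the ratio was -0.0067 (-0.026 to 0.013) in DN-like cells, an interval that holds 0, and -0.047 in cycling cells. The DN-like class rests on 96, 55 and 150 cells. Of 76 members with at least 100 UMIs in each of the 5 classes, 56 had a ratio over 0 in all 5 for p53 AD/- over p53-/- and 50 for p53 AD/- over p53+/-. In a single class 32.6% to 41.2% and 37.8% to 46.8% of all genes were over 0. The share of all genes over or under 0 in all 5 classes at once was not counted for any pair, so these shares are not a like background. Sdhc was under 0 in all 5 classes in both pairs. For p53-/- over p53+/- 10 members were over 0 in all 5 classes, among them Uqcrc1, Uqcrc2, Uqcrfs1, Sdhb and Atp5b, and 29 under 0, among them Ndufa3 and Uqcr11. In a single class 57.7% to 68.1% of all genes were over 0 in this pair. Uqcrc1 stood at 69.9, 158 and 94.3 CPM in DN-like cells and 63.9, 111 and 82.8 CPM in mature SP-like cells of p53+/-, p53 AD/- and p53-/-.

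In quiescent DP-like cells the 7 mitochondrial genes of complex I summed to 7868, 4667 and 7518 CPM in p53+/-, p53 AD/- and p53-/-, so that p53 AD/- was low where its nuclear complex I level was high. All 7 were lower by 1.2-fold in p53 AD/- than in either other library. mt-Nd6 stood at 122, 17.8 and 109.9 CPM, a log2 ratio of -2.63 over p53-/- (-2.89 to -2.38), and mt-Nd3 at 835, 298 and 797 CPM. Strand use in counting was not given in the sources used here, and mt-Nd6 lies on the other strand from the rest. mt-Cytb of complex III had the same order as the nuclear members in quiescent DP-like cells, at 4363, 4730 and 3769 CPM, but p53 AD/- was lowest in DN-like cells, at 5024, 4367 and 4417 CPM, and in cycling cells, at 3469, 2994 and 3121 CPM. The 3 complex IV genes summed to 22190, 18001 and 19664 CPM. The 2 complex V genes summed to 9551, 7128 and 8628 CPM. Most of this was mt-Atp6, at 9169, 6929 and 8101 CPM, a p53 AD/- over p53-/- log2 ratio of -0.23. The other, mt-Atp8, stood at 382, 199 and 527 CPM, a ratio of -1.40. The ratio of nuclear to mitochondrial UMIs of complex I was 0.92, 1.84 and 0.88, and between 1.84 and 3.06 in p53 AD/- over the 5 classes against 0.65 to 1.24 in the other libraries. For complex III it was 0.53, 0.57 and 0.57. The mitochondrial share of all UMIs, on which cells were filtered, was lowest in p53 AD/-, and its part in these ratios was not tested.

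**Figure D5:**
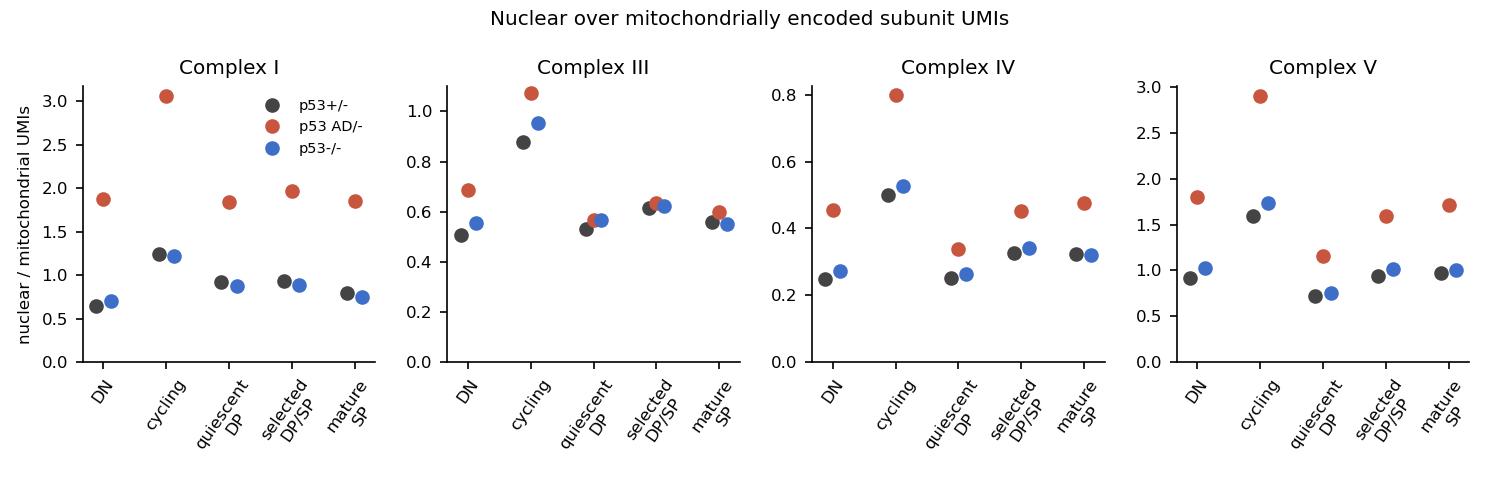
UMIs of nuclear-encoded over UMIs of mitochondrially encoded subunits (y axis from 0) of complexes I, III, IV and V in 5 thymocyte classes (x axis), 1 point per library. In complexes I, IV and V the p53 AD/- point lies above both others in each class, and in complex III the 3 points lie close together in quiescent DP-like cells, at 0.53 to 0.57.

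Assembly factors, carriers and regulators were taken from lists outside the members. Of 49 measured assembly factors 22 were higher and 8 lower in p53 AD/- than in p53-/-, and 24 higher and 6 lower than in p53+/-, with medians of 0.23 and 0.25. Of all genes 20.9% were higher and 39.5% lower in the first pair, and 23.1% and 31.3% in the second. Coa4, a complex IV assembly factor, stood at 7.29, 8.82 and 4.75 CPM in p53+/-, p53 AD/- and p53-/-, and Ndufaf3, of complex I, at 54.3, 80.7 and 48.4 CPM. Sco1, a copper chaperone for complex IV, stood at 7.01, 4.79 and 8.59 CPM, so it was low in p53 AD/-, and Sco2, its relative and a known p53 target, at 7.91, 12.8 and 10.04 CPM, with an interval of -0.033 to 0.74 over p53-/-. All 4 complex II assembly factors were higher in p53 AD/- than in p53-/-, unlike the complex II subunits, but the interval of Sdhaf4 (-0.011 to 0.56) held 0. Cycs, cytochrome c, stood at 126, 189 and 127 CPM, with ratios of 0.58 over each of the other libraries. Of 13 measured regulators of respiratory genes 0 were higher and 5 (38.5%) lower in p53 AD/- than in p53-/-, a lower share close to the 39.5% of all genes. The factor gene Nrf1 stood at 55.2, 50.6 and 65.9 CPM and Pprc1, a coactivator related to PGC-1, at 3.82, 1.76 and 3.68 CPM from 55, 14 and 48 UMIs. Ppargc1a had 0 UMIs.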

How the data were processed

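Raw UMI counts per gene and cell barcode, deposited by the authors for 3 thymus libraries, were made with Cell Ranger 4.0.0 on GRCm38, per the file headers and the submitters' processing notes. Annotation, chemistry and strand use were not given in the sources used here. Cells with at least 500 genes and under 10% mitochondrial UMIs were clustered together in scanpy 1.11.5 (Python 3.11.15): counts scaled to 10000 and log-transformed, 2000 variable genes without members, mitochondrial, ribosomal protein and receptor segment genes, 30 principal components, 15 neighbours, Leiden resolution 1. A class name needed 3 markers in 5% of a cluster's cells and 1 among its top 10 genes. No doublet caller was run, so doublets remain. UMIs were summed per class and library and scaled to a common total of the class's UMIs (CPM), and no test was made. CPM have exact Poisson and ratios exact conditional binomial 95% intervals. Only the ratio intervals were tried on simulated data, and these were Poisson counts without spread between cells or animals. The count minimum was 100 UMIs over the 3 libraries and the fold 1.2. Exon lengths and positions came from GENCODE M21. The ribosomal list leaves out the Rps6k kinases. Named in full are the member with the highest CPM of each complex, the 2 highest and 2 lowest ratios of each pair over all members, all of complex II, the complex I core, the subunit c copies, Uqcrfs1, Cox4i1, Atp5a1, Atp5b and the tissue isoforms. Other members, Nrf1 and Sco2 were chosen after their values were seen. Some items are not reported here. The members and lists were chosen with earlier results of these data known. Alternatives changed the cell filters, clustering, scaling (TMM in edgeR 4.0.16, R 4.3.3), class, minimum and fold, and matched cells on Malat1 share.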

Additional observations from a re-analysis of the deposited data

Results flagged for a closer look

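Complex II differed in direction between classes in 1 pair: the p53 AD/- over p53-/- log2 ratio of its summed level was 0.087 (0.016 to 0.16) in quiescent DP-like cells and -0.077 (-0.13 to -0.026) in cycling cells. The p53 AD/- library was above p53-/- in the first class and below it in the second. With 1 library per genotype the difference was not tested, and the quiescent ratio was itself -0.068 in cells matched on Malat1 share.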

How the results depend on the processing

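The summed log2 ratios were 0.32 for p53 AD/- against p53-/-, 0.22 for p53 AD/- against p53+/- and -0.10 for p53-/- against p53+/-, and kept their sign in each of the 11 alternatives other than single clusters. In that order they were 0.37, 0.26 and -0.11 with under 5% mitochondrial UMIs, 0.36, 0.24 and -0.12 with each library clustered alone, 0.45, 0.25 and -0.20 with TMM factors, 0.31, 0.19 and -0.12 when scaled without Malat1, mitochondrial and ribosomal protein genes, 0.14, 0.099 and -0.044 in cells matched on Malat1 share, and 0.18, 0.15 and -0.027 over all filtered cells. The 2 ratios of p53 AD/- were 0.34 and 0.23 without the 5% of cells with the most UMIs, 0.37 and 0.26 at Leiden resolution 0.5 and 0.34 and 0.24 as a mean over cells of CPM, and with at least 1000 genes per cell the ratios over p53+/- were 0.21 and -0.11. Within clusters 0, 1, 2, 3 and 5, alternatives chosen after seeing the data, p53 AD/- over p53-/- was 0.13, 0.27, 0.27, -0.24 and 0.24, p53 AD/- over p53+/- was 0.061, 0.17, 0.16, -0.095 and 0.14, and p53-/- over p53+/- was -0.071 in cluster 0 and 0.14 in cluster 3. Of the members higher by 1.2-fold in p53 AD/-, 54 over p53-/- and 37 over p53+/-, 18 and 14 remained by count in matched cells, 21 and 21 over all filtered cells, and 5 and 3 at a fold of 1.5. Lower members of p53 AD/- over p53-/- numbered 1 in matched cells against 0, and over p53+/-, against 1, there were 2 when scaled without Malat1, mitochondrial and ribosomal protein genes or by the mean over cells, 3 in matched cells and 0 at a fold of 1.5. For p53-/- over p53+/- 2 members were higher, but 1 with at least 1000 genes, without the 5% of cells with the most UMIs, at resolution 2, with libraries clustered alone or scaled without those genes, and 0 with TMM factors or a fold of 1.5. The 4 lower members became 9 with under 5% mitochondrial UMIs, 7 without the cells with the most UMIs or with libraries clustered alone, 28 with TMM factors, 8 when scaled without those genes, 2 in matched cells, 1 over all filtered cells and 1 at a fold of 1.5. The shares of all genes past the fold were not counted in these alternatives. The cycling over quiescent ratios of p53+/-, p53 AD/- and p53-/- (0.58, 0.43 and 0.64) were 0.59, 0.40 and 0.65 with under 5% mitochondrial UMIs, 0.63, 0.44 and 0.69 at resolution 0.5, 1.09, 0.97 and 1.17 with TMM factors and 0.62, 0.46 and 0.69 when scaled without those genes. Those of p53+/- and p53 AD/- were 0.57 and 0.39 without the cells with the most UMIs and 0.59 and 0.41 as a mean over cells, p53+/- and p53-/- had 0.59 and 0.65 at resolution 2, p53+/- had 0.57 with at least 1000 genes, and p53 AD/- and p53-/- had 0.34 and 0.66 with libraries clustered alone. The Cox7a1 ratio of p53 AD/- over p53+/- (-0.50) was 0.062 over all filtered cells. Of the members past 1.2-fold 53 of 54, 37 of 38 and 6 of 6 kept their sign in all alternatives run for the 3 pairs. The cause of these shifts was not tested. No paired analysis was possible because each genotype has 1 library. With 1 library per genotype, no spread between animals could be set against these ratios, and members with few UMIs, such as Cox7a1, are limited by depth.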

Other observations

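Cox6b2 varied more between stages than between libraries. It stood at 71.2, 71.8 and 63.8 CPM in DN-like cells of p53+/-, p53 AD/- and p53-/-, at 20.7, 21.0 and 14.8 CPM in cycling cells and at 5.43, 8.15 and 5.46 CPM in mature SP-like cells. The DN-like level was the highest of the 5 classes in each library. The values of this testis form across stages have no test. Cox7a2l had its lowest level of the 5 classes in cycling cells of each library, at 290, 286 and 314 CPM, and its highest in quiescent DP-like cells, at 494, 483 and 490 CPM. The complex II anchor Sdhd stood at 60.0, 37.2 and 44.5 CPM in selected DP and early SP-like cells, a p53 AD/- over p53+/- log2 ratio of -0.69, while Sdhb in the same cells stood at 148, 196.5 and 184 CPM.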
